A study of Homo sapiens with 6 samples.

Results

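The nuclear-encoded subunits of the mitochondrial respiratory chain and ATP synthase are described here in DLD-1 cells, a human colorectal cancer line, after transfection with AHR siRNA, against control siRNA. The rule for members used the symbol and the type of a gene and no measured value: it took protein-coding genes whose current symbol belongs to the NDUF, SDH, UQCR, COX or ATP5 subunit families, with CYC1. The rule took 90 of the 60483 genes in the count tables, and 81 of the 90 had enough counts to be tested. Of the 81 tested members, 11 were higher and 21 were lower in AHR siRNA cells, and 49 did not pass the test. Members passed it less often than genes at large, 39.5% against 60.1% of all 14900 tested genes.

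The respiratory chain passes electrons from NADH and succinate through complexes I and II to ubiquinone, then through complex III and cytochrome c to complex IV, which reduces oxygen. Complexes I, III and IV pump protons across the inner mitochondrial membrane, and complex V, the ATP synthase, uses the returning protons to make ATP. Complexes I, III, IV and V are built from subunits of both the nuclear and the mitochondrial genome, whereas all subunits of complex II are nuclear. In the colon, respiration is a main source of ATP for differentiated epithelial cells.

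RNA was sequenced from 3 libraries of cells transfected with AHR siRNA and from 3 libraries of cells transfected with control siRNA. All 6 libraries came from the same line, grown in serum-containing medium, and carried no other treatment in the labels. AHR, the aryl hydrocarbon receptor, is a transcription factor switched on by ligands, and the comparison asks which transcripts differ when its level is reduced. Separate cultures are not named in the labels, so p-values reflect only how much these libraries vary, a spread that may be technical. In bulk RNA fewer expressing cells and less RNA per cell cannot be told apart. No source used here gives the siRNA sequences, and effects of the siRNA other than loss of AHR were not tested.

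The libraries held 11567736 to 12937058 counts in the AHR siRNA group and 13585529 to 15037145 counts in the control siRNA group. AHR itself, the targeted gene, stood at 95.8, 87.4 and 95.0 CPM (counts per library size, scaled by the TMM method) in the AHR siRNA libraries, against 117, 144 and 132 CPM in the control siRNA libraries. The groups did not overlap, and AHR fell by 0.50 on the log2 scale (SE 0.08, edgeR adjusted p = 1.98e-05). All 8 colon epithelium markers were detected, with summed levels of 8030 to 8353 CPM in AHR siRNA and 11630 to 13151 CPM in control siRNA libraries. Of the 8, 5 were called lower, VIL1 was called higher, and KRT19 and KRT20 were not called, and the part of this difference in the results was not tested. Marker lists of fibroblasts, leukocytes, endothelium and muscle summed to 2.07 to 7.12 CPM in AHR siRNA and 1.31 to 6.69 CPM in control siRNA libraries, and DCN, LUM, KDR and MYH2 had no count in any library. No count was listed for any of the 13 subunit genes of mitochondrial DNA, so the subunits encoded there are not analysed here.

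The first library of each group stood apart for these genes. Control siRNA replicate 1 was the highest control library for 75 of the 81 tested members (92.6%), against 40.8% of all tested genes. AHR siRNA replicate 1 was the highest of its group for 63 members (77.8%), against 36.2% of all tested genes. The members took 1.03%, 0.987% and 0.928% of all counts in AHR siRNA replicates 1, 2 and 3, and 1.01%, 0.876% and 0.896% in control siRNA replicates 1, 2 and 3. The share was highest in the first library of each group. The part of these 2 libraries in the results was measured only by leaving each out.

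Across all 81 tested members the differences were small. The call rate, an adjusted p under 0.05 in edgeR's quasi-likelihood test after adjustment over all 14900 tested genes, was 39.5% among members and 60.1% among all tested genes. Members were called higher in 13.6% and lower in 25.9% of cases, beside 30.0% and 30.1% of all tested genes. The groups did not overlap for 25 members (30.9%), against 63.7% of all tested genes, and all 25 of these were called. The median log2 fold change of the tested members was -0.08, and that of all tested genes was 0.01. The fitted fold was under 1.2 in either direction for 57 members (70.4%), against 35.9% of all tested genes, and at least 1.5 for 6 members (7.41%), against 33.0%.

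**Figure D1:**
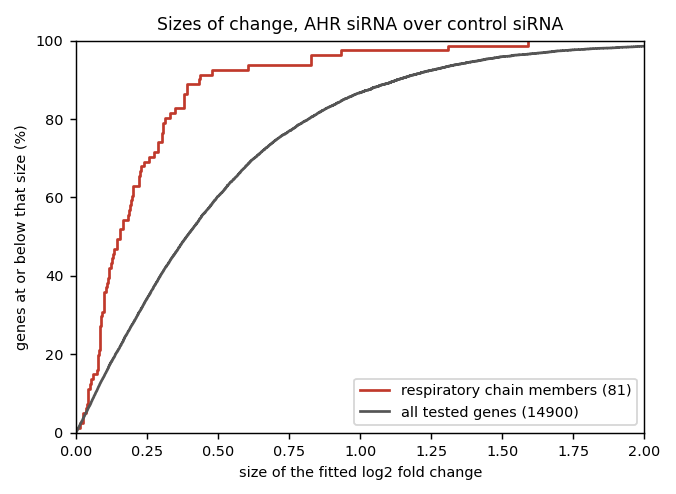
The horizontal axis is the size of the fitted log2 fold change, AHR siRNA over control siRNA, without its sign, and the vertical axis is the percent of genes at or below that size. The line of the 81 tested members lies above that of the 14900 tested genes, with a median size of 0.15 against 0.39.

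The balance of higher and lower members depended on single libraries, on the scaling and on the threshold. Without control siRNA replicate 1, 25 members were called higher and 13 lower, and the member median was 0.01. Of the 14 calls gained without that library all were higher, and 8 calls were lost. Without AHR siRNA replicate 3, 12 members were called higher and 12 lower. With upper-quartile factors 15 were higher and 11 lower, but 35.1% of all tested genes were then higher and 25.4% lower. The median of all tested genes was 0.09 with these factors, and the member median of -0.0040 stood 0.09 below it. With a tested minimum fold of 1.2 there were 7 members higher and 4 lower. With library totals in place of TMM scaling, 27 members were called higher and 6 lower, but the median of all tested genes shifted too, to 0.15, and the member median of 0.07 stood 0.09 below it, as with TMM scaling. Without control siRNA replicate 1 the member median lay 0.01 above that of all tested genes.

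**Figure D2:**
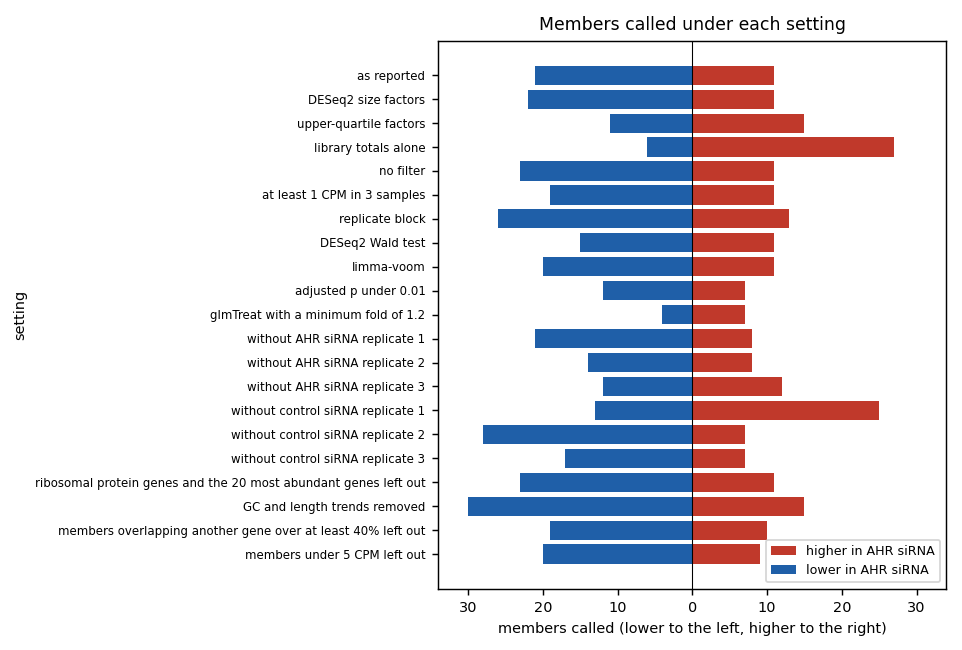
Bars give the number of members called higher (right of 0) and lower (left of 0) in AHR siRNA under the reported fit and each alternative. The lower calls outnumber the higher ones as reported (21 against 11), and the order turns without control siRNA replicate 1 (13 lower against 25 higher), with library totals alone (6 against 27), with upper-quartile factors (11 against 15) and with a minimum fold of 1.2 (4 against 7). The numbers are equal, 12 each, without AHR siRNA replicate 3. All tested genes shifted upward too with library totals alone (39.5% higher, 21.5% lower) and with upper-quartile factors (35.1% higher, 25.4% lower).

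Many single calls did not rest on 1 library. Of the 32 called members, 19 kept their call when any 1 library was left out, 7 of the 11 higher and 12 of the 21 lower. Of these, 13 also kept it under each of the other alternatives tried, apart from the stricter thresholds of an adjusted p under 0.01 and a tested minimum fold of 1.2. The higher ones included NDUFB5, NDUFA5, NDUFA13, SDHC and UQCRC2. They also included NDUFA4L2, which passed the filter on low counts only through the AHR siRNA libraries and so supports nothing here. The 6 lower ones were NDUFV2, NDUFA12, CYC1, COX6A1, COX6B1 and ATP5F1A. These 13 came from all 5 complexes.

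**Figure D3:**
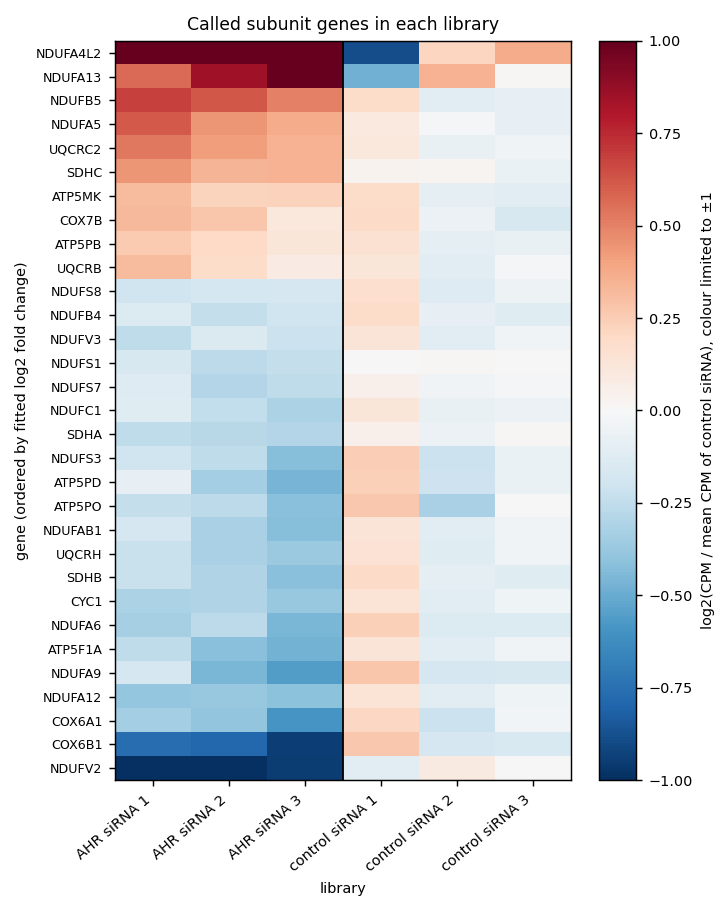
Rows are 31 of the 32 called members, ordered by fitted log2 fold change with the highest at the top, and columns are the 3 AHR siRNA libraries and then the 3 control siRNA libraries. Colour gives log2 of the CPM over the mean CPM of the control siRNA libraries, red above and blue below, limited to 1 in each direction. Control siRNA replicate 1 is redder than its group in most rows.

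Promoter sequences are shown for 4 of these members, 3 lower (COX6B1, NDUFA12 and COX6A1) and 1 higher (UQCRC2), since the transcription factors NRF1 and GABP, an ETS family factor, are known to act at promoters of many respiratory genes and AHR binds a short core element. Each is the stretch of 250 bases before the first listed start in RefSeq (GRCh38.p14), on the gene's strand. Capitals mark the words searched on both strands: the NRF1 word (GCGC and TGCGC with any 1 base between them), the ETS word CCGGAAG, the AHR response element core GCGTG and the YY1 word AAGATGGC.
COX6B1 (chr19:35648073-35648322, plus strand): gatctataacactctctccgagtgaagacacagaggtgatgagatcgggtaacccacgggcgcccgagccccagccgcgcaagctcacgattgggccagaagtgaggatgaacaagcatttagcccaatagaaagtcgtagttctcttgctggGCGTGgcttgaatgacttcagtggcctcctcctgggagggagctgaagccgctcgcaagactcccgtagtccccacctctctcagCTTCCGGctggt
NDUFA12 (chr12:95003698-95003947, minus strand): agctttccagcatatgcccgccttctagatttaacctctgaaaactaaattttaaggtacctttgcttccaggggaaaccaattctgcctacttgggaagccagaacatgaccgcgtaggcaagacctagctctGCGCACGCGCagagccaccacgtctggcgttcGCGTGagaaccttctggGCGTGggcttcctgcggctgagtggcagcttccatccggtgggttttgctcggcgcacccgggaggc
COX6A1 (chr12:120437863-120438112, plus strand): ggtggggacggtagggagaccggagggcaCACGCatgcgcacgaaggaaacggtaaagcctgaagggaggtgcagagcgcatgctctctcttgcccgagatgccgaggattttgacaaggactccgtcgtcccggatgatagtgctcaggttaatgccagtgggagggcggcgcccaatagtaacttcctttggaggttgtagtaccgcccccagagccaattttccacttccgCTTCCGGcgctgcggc
UQCRC2 (chr16:21953111-21953360, plus strand): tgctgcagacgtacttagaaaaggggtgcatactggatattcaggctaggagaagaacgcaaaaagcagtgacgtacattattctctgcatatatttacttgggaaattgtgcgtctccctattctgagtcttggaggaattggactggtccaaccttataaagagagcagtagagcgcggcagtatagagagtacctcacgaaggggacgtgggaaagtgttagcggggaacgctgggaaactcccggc

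The COX6B1 and COX6A1 windows each held 1 ETS word and 1 AHR core. The NDUFA12 window held 1 NRF1 word and 3 AHR cores, 1 of which lies inside the NRF1 word, and the UQCRC2 window held none of the 4 words. These 4 windows are examples and do not stand for a direction. Of other higher members, NDUFA13 held 1 ETS word and 1 AHR core, and NDUFA5 held none. A link between words and direction was not tested. RefSeq promoters were matched for 70 of the 90 members. The NRF1 word was in 15 of these 70 (21.4%), against 5.5% of all 27305 promoters of the same length. The ETS word was in 17 (24.3%), against 8.8%, the AHR core in 34 (48.6%), against 31.9%, and the YY1 word in 1 (1.4%), against 1.4%. Among members called higher, 0 of 6 held the NRF1 word, 2 the ETS word and 2 the AHR core. Among members called lower, 5 of 20 held the NRF1 word, 7 the ETS word and 12 the AHR core, and among members not called 9 of 39, 8 and 18 did. The 27305 promoters were not matched to the members in base content or in the level of their genes, and the part of these in the shares was not tested. A word is a match of letters and not a binding site.

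Complex I, which oxidizes NADH and reduces ubiquinone, had the most members and the most called ones. Its called share was 43.2%, beside 60.1% of all tested genes. The share was 75% in complex II, 40% in complex III, 30.8% in complex IV and 29.4% in complex V. Of its 38 members 37 were tested, and 4 were higher and 12 lower in AHR siRNA cells, with a median log2 fold change of -0.08. Of its 7 catalytic core subunits, 5 were lower. Not all of the others are described here, so this count does not give the direction of the whole core. Of the 30 tested accessory subunits, 3 were higher, 7 were lower and 20 were not called.

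NDUFS1, the largest iron-sulfur subunit, stood at 114, 106 and 108 CPM in AHR siRNA libraries, against 127, 128 and 127 CPM in control siRNA libraries, without overlap, and fell by 0.22 on the log2 scale (SE 0.06, edgeR adjusted p = 0.00640). It was not called with upper-quartile factors (-0.14, edgeR adjusted p = 0.0646) or library totals alone (-0.07, edgeR adjusted p = 0.332). NDUFV1, which binds the flavin and takes electrons from NADH, was not called at 178, 171 and 159 CPM in AHR siRNA libraries, against 193, 172 and 172 CPM in control siRNA libraries (log2 fold change -0.08, edgeR adjusted p = 0.323). Its sign turned with library totals alone, and it was called lower with GC and length trends removed (-0.19, edgeR adjusted p = 0.00887).

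The core subunits NDUFS3, NDUFS7 and NDUFS8 had log2 fold changes of -0.29, -0.22 and -0.18 (edgeR adjusted p = 0.0160, 0.0281 and 0.0472). NDUFS3 stood at 64.5, 62.0 and 55.1 CPM in AHR siRNA libraries, against 87.4, 63.6 and 70.6 CPM in control siRNA libraries. The control range was set by replicate 1, and NDUFS3 was not called without that library (edgeR adjusted p = 0.0716 at a log2 fold change of -0.16) nor without AHR siRNA replicate 3 (edgeR adjusted p = 0.0727). NDUFS7, which carries the last cluster before ubiquinone, lost its call without AHR siRNA replicate 2, AHR siRNA replicate 3 or control siRNA replicate 3 (edgeR adjusted p = 0.104, 0.0852 and 0.0506). NDUFS8 lost it without any 1 of the libraries other than control siRNA replicate 2, with the highest edgeR adjusted p, 0.214, without control siRNA replicate 1.

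NDUFV2, an iron-sulfur subunit next to the flavin site, had the lowest fold change of all members but few counts. It had 20, 21 and 33 counts in AHR siRNA libraries, against 58, 72 and 61 counts in control siRNA libraries. In CPM these were 1.66, 1.54 and 2.42 in AHR siRNA and 4.35, 4.97 and 4.69 in control siRNA libraries, a fall to 40.1% of control (log2 fold change -1.31, SE 0.22, edgeR adjusted p = 4.11e-05). The main transcript of NDUFV2 shares 82.9% of its exon bases with another annotated transcript unit in GENCODE 29, which had no count in any library. How reads shared by overlapping genes were counted is stated by no source used here, so the level of NDUFV2 and its fold are uncertain.

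Among the accessory subunits, NDUFB5 of the membrane arm stood at 69.7, 66.9 and 61.8 CPM in AHR siRNA libraries, against 49.3, 40.1 and 41.1 CPM in control siRNA libraries, and rose to 152% of control (log2 fold change 0.60, SE 0.09, edgeR adjusted p = 5.61e-06). NDUFA5, which sits beside the core of the peripheral arm, stood at 67.5, 59.9 and 57.1 CPM in AHR siRNA libraries, against 47.1, 43.5 and 41.8 CPM in control siRNA libraries, and rose to 139% of control (log2 fold change 0.48, SE 0.08, edgeR adjusted p = 4.74e-05). Both were above every control library, including replicate 1. NDUFA12, whose promoter is printed above, stood at 70.8, 71.3 and 69.5 CPM in AHR siRNA libraries, against 102, 86.1 and 89.7 CPM in control siRNA libraries. It was lower in all 3 AHR siRNA libraries than in any control library and fell to 76.2% of control (log2 fold change -0.39, SE 0.07, edgeR adjusted p = 0.000153).

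NDUFA13, an accessory subunit also known as GRIM-19, was the third higher accessory member, with 60, 82 and 112 counts in AHR siRNA libraries, against 32, 62 and 44 counts in control siRNA libraries (log2 fold change 0.93, SE 0.22, edgeR adjusted p = 0.0012). It is named after its values were seen, it has few counts, and 44.1% of its main transcript overlaps another gene. The other lower accessory members were NDUFA6, NDUFA9, NDUFAB1, NDUFB4, NDUFC1 and NDUFV3, at log2 fold changes of -0.35, -0.39, -0.30, -0.19, -0.23 and -0.20. Of these, NDUFA6, which belongs to the LYR protein family, and NDUFAB1, the mitochondrial acyl carrier protein, kept their calls without any 1 library, but were not called with library totals alone (edgeR adjusted p = 0.0655 and 0.104). NDUFA9, NDUFB4, NDUFC1 and NDUFV3 each lost theirs without control siRNA replicate 1 (edgeR adjusted p = 0.169, 0.211, 0.0872 and 0.143) and without AHR siRNA replicate 3 (edgeR adjusted p = 0.122, 0.0880, 0.120 and 0.0928). Without AHR siRNA replicate 2, NDUFA9, NDUFB4 and NDUFC1 were not called (edgeR adjusted p = 0.111, 0.153 and 0.0797). Without AHR siRNA replicate 1, NDUFB4 and NDUFV3 were not called (edgeR adjusted p = 0.0502 and 0.105), nor was NDUFV3 without control siRNA replicate 3 (edgeR adjusted p = 0.0552).

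**Figure D4:**
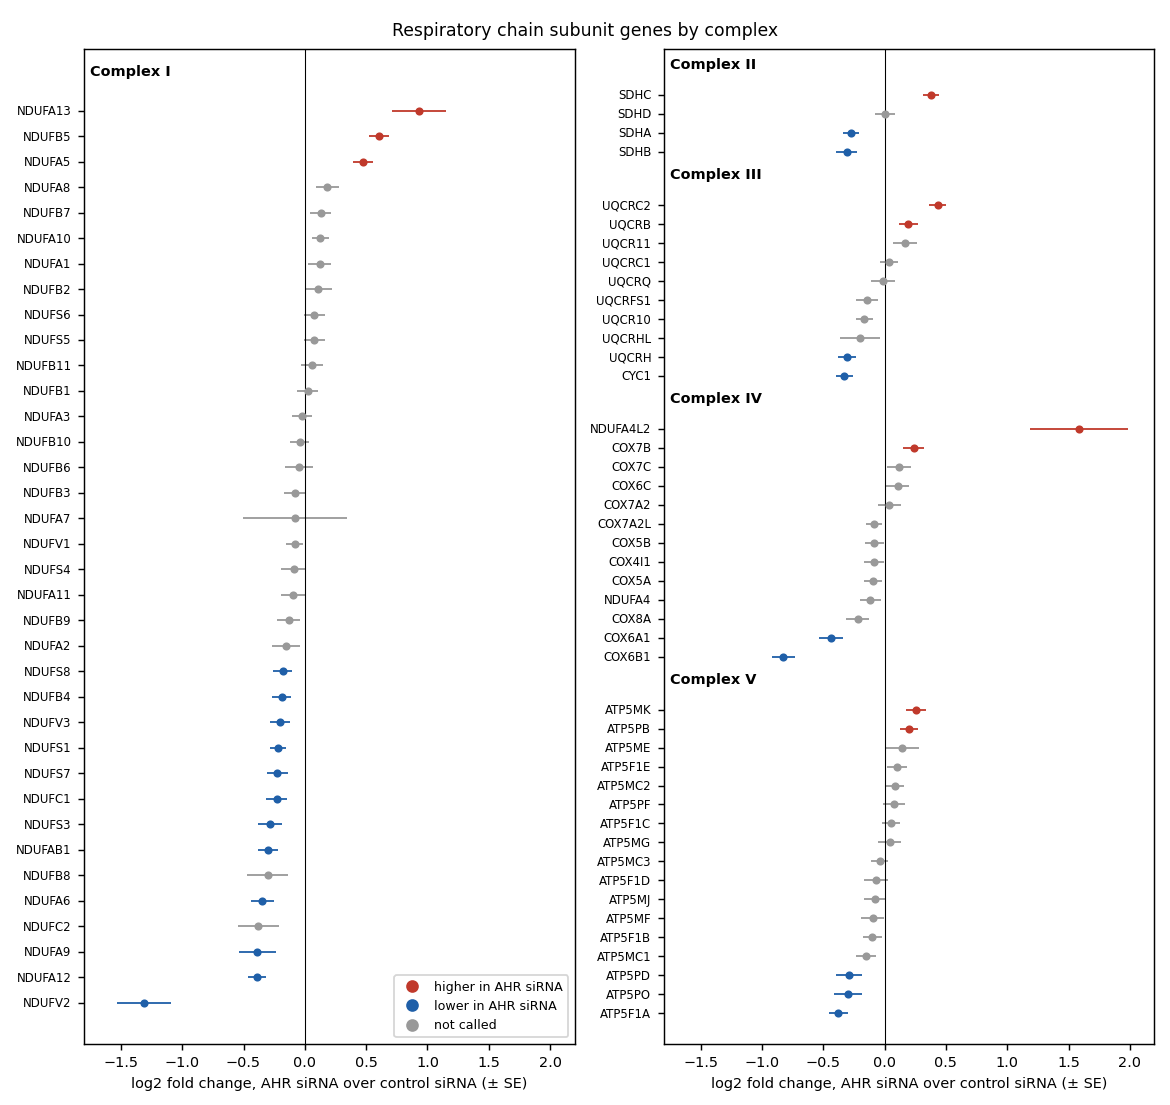
Points are the fitted log2 fold changes of 80 of the 81 tested members, AHR siRNA over control siRNA, with bars of 1 SE, in complex I (left) and complexes II to V (right). Red marks 10 members called higher, blue the 21 called lower and grey the 49 not called, and the range runs from -1.31 for NDUFV2 to 1.59 for NDUFA4L2.

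In complex II, succinate dehydrogenase, the 4 subunits split. SDHA, the flavoprotein that oxidizes succinate, stood at 189, 186 and 184 CPM in AHR siRNA libraries, against 233, 216 and 227 CPM in control siRNA libraries, and fell to 82.6% of control (log2 fold change -0.28, SE 0.06, edgeR adjusted p = 0.0010). SDHB, the iron-sulfur subunit, stood at 125, 118 and 109 CPM in AHR siRNA libraries, against 166, 136 and 134 CPM in control siRNA libraries, and fell to 80.6% of control (log2 fold change -0.31, SE 0.08, edgeR adjusted p = 0.00316). Both soluble catalytic subunits were lower in every AHR siRNA library than in any control library. SDHC, a membrane anchor that helps bind ubiquinone and heme, stood at 126, 117 and 118 CPM in AHR siRNA libraries, against 95.2, 94.4 and 88.5 CPM in control siRNA libraries, and rose to 130% of control (log2 fold change 0.38, SE 0.07, edgeR adjusted p = 7.50e-05). SDHD, the other anchor, was not called, at 61.4, 60.0 and 52.2 CPM in AHR siRNA libraries, against 63.1, 57.6 and 52.6 CPM in control siRNA libraries (log2 fold change 0.00, SE 0.08, edgeR adjusted p = 0.989). With library totals alone SDHA and SDHB were not called (edgeR adjusted p = 0.0697 and 0.0845).

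In complex III, the cytochrome bc1 complex, all 10 members were tested, and 2 were higher, 2 lower and 6 not called. UQCRC2, a core protein of the matrix side, stood at 328, 305 and 291 CPM in AHR siRNA libraries, against 246, 217 and 222 CPM in control siRNA libraries, and rose to 135% of control (log2 fold change 0.43, SE 0.07, edgeR adjusted p = 3.10e-05). CYC1, the cytochrome c1 subunit that hands electrons to cytochrome c, stood at 172, 174 and 165 CPM in AHR siRNA libraries, against 235, 199 and 208 CPM in control siRNA libraries, and fell to 79.6% of control (log2 fold change -0.33, SE 0.07, edgeR adjusted p = 0.000562). UQCRH, the hinge protein beside cytochrome c1, stood at 198, 184 and 178 CPM in AHR siRNA libraries, against 255, 212 and 225 CPM in control siRNA libraries, and fell to 80.9% of control (log2 fold change -0.31, SE 0.07, edgeR adjusted p = 0.00165). Its near-identical copy UQCRHL was not called (log2 fold change -0.20, edgeR adjusted p = 0.310), and reads shared by the pair make both values uncertain. UQCRH was not called with library totals alone (edgeR adjusted p = 0.0593). None of these 3 called genes overlapped between the groups.

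UQCRFS1, the Rieske iron-sulfur protein, was not called, at 134, 121 and 113 CPM in AHR siRNA libraries, against 156, 121 and 128 CPM in control siRNA libraries (log2 fold change -0.14, edgeR adjusted p = 0.169). It was called lower without control siRNA replicate 2 (edgeR adjusted p = 0.0428 at a log2 fold change of -0.22), and its sign turned with library totals alone. UQCRB, a small subunit near the ubiquinone site, was the second higher member at a log2 fold change of 0.19 (edgeR adjusted p = 0.0330), but the groups overlapped. It lost its call without AHR siRNA replicate 1, AHR siRNA replicate 2, control siRNA replicate 2 or control siRNA replicate 3 (edgeR adjusted p = 0.172, 0.0773, 0.193 and 0.114).

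In complex IV, cytochrome c oxidase, 13 of 19 members were tested, and 2 were higher, 2 lower and 9 not called. COX6B1, a subunit on the intermembrane face near the cytochrome c docking site, had the largest fall among members with at least 5 CPM. It stood at 118, 115 and 104 CPM in AHR siRNA libraries, against 240, 178 and 179 CPM in control siRNA libraries, with means of 112 ± 7.5 CPM in AHR siRNA and 199 ± 35.5 CPM in control siRNA libraries (SD, n = 3 each). Every AHR siRNA library was below every control library, and COX6B1 fell to 56.4% of control (log2 fold change -0.83, SE 0.10, edgeR adjusted p = 5.25e-07). COX6A1, the isoform of most tissues of another small subunit, stood at 38.4, 37.1 and 32.4 CPM in AHR siRNA libraries, against 56.3, 42.0 and 47.8 CPM in control siRNA libraries, and fell to 73.8% of control (log2 fold change -0.44, SE 0.10, edgeR adjusted p = 0.000878). The promoters of both are among those printed above.

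COX4I1, the subunit through which ATP regulates the enzyme, was not called, at 419, 410 and 363 CPM in AHR siRNA libraries, against 482, 393 and 393 CPM in control siRNA libraries (log2 fold change -0.09, edgeR adjusted p = 0.369). Its sign turned with library totals alone and without control siRNA replicate 1. COX7A2, COX8A and NDUFA4 were not called either, at log2 fold changes of 0.04, -0.22 and -0.12 (edgeR adjusted p = 0.740, 0.0502 and 0.261). The signs of COX7A2 and NDUFA4 turned under other settings. COX8A was called lower without AHR siRNA replicate 1 or control siRNA replicate 2 (edgeR adjusted p = 0.0212 and 0.0109). It was also called lower with DESeq2 size factors, with no filter, without abundant genes and with GC and length trends removed (edgeR adjusted p = 0.0466, 0.0311, 0.0469 and 0.00064). COX7B, a small membrane subunit, stood at 162, 157 and 139 CPM in AHR siRNA libraries, against 148, 125 and 116 CPM in control siRNA libraries (log2 fold change 0.24, edgeR adjusted p = 0.0204). The groups overlapped through control siRNA replicate 1, and the call was lost without AHR siRNA replicate 1, AHR siRNA replicate 2, control siRNA replicate 2 or control siRNA replicate 3 (edgeR adjusted p = 0.0952, 0.0863, 0.0763 and 0.163).

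Isoforms of complex IV that are known from heart and skeletal muscle, lung or testis were at the floor. COX7B2 and COX8C had no count in any library, which allows up to 3 counts per library for counting error only. That is 0.200 to 0.259 CPM by library totals without TMM scaling. COX4I2 had 1 count and COX6A2 had 1 count over all 6 libraries. COX6B2 had 1, 3 and 1 counts in AHR siRNA libraries, against 1, 3 and 2 in control siRNA libraries, and COX7A1 had 3, 2 and 2 counts in AHR siRNA libraries, against 1, 1 and 3 in control siRNA libraries. None of these 6 was tested. NDUFA4L2, a paralog of NDUFA4 known as a hypoxia-induced gene, had 13, 21 and 16 counts in AHR siRNA libraries, against 3, 7 and 7 counts in control siRNA libraries (log2 fold change 1.59, SE 0.40, edgeR adjusted p = 0.00207). Its call is given as a value and not as support for the group, because of the filter. NDUFA4 and NDUFA4L2 are counted here under complex IV, where the NDUFA4 protein is now placed.

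In complex V, the ATP synthase, 17 of 19 members were tested, and 2 were higher, 3 lower and 12 not called. ATP5F1A, the alpha subunit of the F1 head, stood at 687, 611 and 590 CPM in AHR siRNA libraries, against 896, 759 and 799 CPM in control siRNA libraries, and fell to 76.9% of control (log2 fold change -0.38, SE 0.08, edgeR adjusted p = 0.000343). ATP5F1B, the beta subunit that holds the catalytic sites beside it, was not called, at 1110, 1037 and 965 CPM in AHR siRNA libraries, against 1212, 1058 and 1065 CPM in control siRNA libraries (log2 fold change -0.10, edgeR adjusted p = 0.272). ATP5F1C, the rotating gamma subunit, was not called either, at 160, 150 and 141 CPM in AHR siRNA libraries, against 160, 138 and 136 CPM in control siRNA libraries (log2 fold change 0.05, edgeR adjusted p = 0.563). Of these 3 subunits, the alpha subunit alone was separated between the groups. With library totals alone ATP5F1B changed its sign and ATP5F1C was called higher (edgeR adjusted p = 0.0195).

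The genes of the membrane ring, ATP5MC1, ATP5MC2 and ATP5MC3, encode the same c subunit and were not called, at log2 fold changes of -0.15, 0.09 and -0.04 (edgeR adjusted p = 0.105, 0.315 and 0.625). ATP5MC1 was called lower without control siRNA replicate 2 (edgeR adjusted p = 0.0188 at -0.24), ATP5MC2 higher without control siRNA replicate 1 (0.15, edgeR adjusted p = 0.0475), and ATP5MC3 changed its sign with the scaling. ATP5MK, a small subunit where synthase dimers form, stood at 78.1, 73.2 and 73.4 CPM in AHR siRNA libraries, against 71.3, 58.5 and 58.3 CPM in control siRNA libraries. It rose to 120% of control (log2 fold change 0.26, SE 0.08, edgeR adjusted p = 0.0106), and was not called without control siRNA replicate 2 or 3 (edgeR adjusted p = 0.0702 and 0.0820).

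The peripheral stalk, which holds the head still, was split. ATP5PB, its b subunit, was higher by 0.20 on the log2 scale (edgeR adjusted p = 0.0290), and ATP5PD and ATP5PO, its d and OSCP subunits, were lower at -0.29 and -0.30 (edgeR adjusted p = 0.0227 and 0.0305). The groups overlapped for all 3. ATP5PB lost its call without AHR siRNA replicate 1, AHR siRNA replicate 2, control siRNA replicate 2 or control siRNA replicate 3 (edgeR adjusted p = 0.111, 0.0799, 0.161 and 0.161). ATP5PD lost its call without AHR siRNA replicate 2, AHR siRNA replicate 3 or control siRNA replicate 1 (edgeR adjusted p = 0.0951, 0.107 and 0.0714). ATP5PO lost its call without AHR siRNA replicate 2, AHR siRNA replicate 3, control siRNA replicate 1 or control siRNA replicate 3 (edgeR adjusted p = 0.0668, 0.0955, 0.159 and 0.0533), and 70.3% of its main transcript overlaps another gene. The readthrough genes ATP5MF-PTCD1 and NDUFC2-KCTD14, whose main transcripts are wholly covered by exons of other genes, and ATP5MGL had 0 to 2 counts in each library and were not tested.

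The summed level of the member genes of each complex overlapped between the groups in complexes I, III, IV and V. Complex I summed to 2433, 2346 and 2199 CPM in AHR siRNA libraries, against 2629, 2187 and 2243 CPM in control siRNA libraries, with means of 2326 ± 118 CPM in AHR siRNA and 2353 ± 241 CPM in control siRNA libraries (SD, n = 3 each). Complex III averaged 1535 ± 92.1 CPM in AHR siRNA and 1539 ± 146 CPM in control siRNA libraries (SD, n = 3 each). Complex IV averaged 1544 ± 114 CPM in AHR siRNA and 1658 ± 204 CPM in control siRNA libraries, and complex V 3474 ± 215 CPM in AHR siRNA and 3720 ± 363 CPM in control siRNA libraries (SD, n = 3 each). Complex II summed to 501.5, 481.6 and 462.8 CPM in AHR siRNA libraries, against 557.7, 504.3 and 502.1 CPM in control siRNA libraries, so each AHR siRNA library was below each control library by a narrow margin. The sums as a percent of control ran from 92.4% in complex II to 99.8% in complex III with TMM scaling, and from 102.4% to 110.6% with library totals alone. No test was made on the sums.

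**Figure D5:**
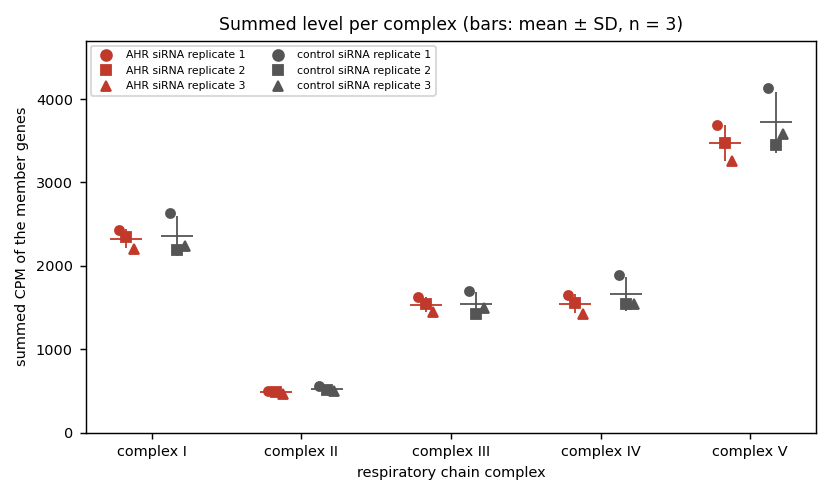
Points are summed CPM of the member genes of each complex in each library, AHR siRNA in red and control siRNA in grey, with the mean and SD (n = 3) as bars. Control siRNA replicate 1 (grey circle) is the highest library in every complex, and the groups overlap in every complex except complex II.

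Assembly factors, which are needed to build the complexes but are not part of them, moved in both directions. For complex I, 3 of 16 tested factors were higher and 5 lower, 8 called in all (60.1% of all tested genes were called), and with library totals alone 5 were higher and 2 lower. TMEM126A, needed for the membrane arm, fell to 43.5% of control, at 10.4, 9.12 and 8.08 CPM in AHR siRNA libraries, against 21.8, 21.2 and 20.5 CPM in control siRNA libraries (log2 fold change -1.21, SE 0.11, edgeR adjusted p = 2.97e-08). NDUFAF4 and ECSIT fell by 0.57 and 0.28 on the log2 scale and TIMMDC1 was higher by 0.31. Leaving out 1 library at a time gave 0 to 3 higher and 3 to 6 lower factors, and ECSIT was not called without AHR siRNA replicate 3 or control siRNA replicate 1 (edgeR adjusted p = 0.0554 and 0.0557), nor was TIMMDC1 without AHR siRNA replicate 1 (edgeR adjusted p = 0.0503).

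Called shares of the assembly factors were 25%, 55.6%, 52.2% and 60% for complexes II, III, IV and V, beside 60.1% of all tested genes. For complex II, 1 of 4 factors was higher, SDHAF4, which binds SDHA before it joins SDHB (log2 fold change 0.57, edgeR adjusted p = 0.00569). For complex III, 3 of 9 were higher and 2 lower. UQCC4 fell to 37.0% of control, at 7.45, 6.03 and 6.02 CPM in AHR siRNA libraries, against 20.6, 14.4 and 17.8 CPM in control siRNA libraries (log2 fold change -1.44, SE 0.15, edgeR adjusted p = 9.32e-08). TTC19 fell by 0.75 on the log2 scale, while UQCC1 and UQCC5 were higher by 0.60 and 0.82. For complex IV, 5 of 23 tested factors were higher and 7 lower, and with library totals alone 9 were higher and 4 lower. COX20, a chaperone of a mitochondrially encoded subunit, had 73, 62 and 80 counts in AHR siRNA libraries, against 21, 30 and 37 counts in control siRNA libraries (log2 fold change 1.34, SE 0.22, edgeR adjusted p = 3.59e-05). COX15, which makes heme A, rose to 163% of control (log2 fold change 0.71, edgeR adjusted p = 1.17e-07), whereas HIGD1A and COA7 fell by 0.63 and 0.44. For complex V, 3 of 5 tested factors, ATPAF1, ATPAF2 and TMEM70, were lower, by 0.23, 0.27 and 0.43 on the log2 scale, and with library totals alone 2 factors were higher and 1 lower. Leaving out 1 library at a time gave 3 to 8 higher and 5 to 9 lower factors of complex IV, and 1 to 3 lower factors of complex V. ATPAF1 was not called without AHR siRNA replicate 2 (edgeR adjusted p = 0.0748), and ATPAF2 was not called without AHR siRNA replicate 2, AHR siRNA replicate 3 or control siRNA replicate 1 (edgeR adjusted p = 0.0846, 0.0694 and 0.127).

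Of 15 tested regulators of respiratory genes, 1 was higher and 6 lower, with 1 to 2 higher and 5 to 7 lower when 1 library was left out. Their called share was 46.7%, beside 60.1% of all tested genes. NRF1, nuclear respiratory factor 1, averaged 15.9 ± 1.45 CPM in AHR siRNA libraries and 24.1 ± 2.17 CPM in control siRNA libraries (SD, n = 3 each), without overlap, and fell to 65.9% of control (log2 fold change -0.60, SE 0.10, edgeR adjusted p = 5.76e-05). YY1 and SLIRP, a partner of LRPPRC in the keeping of mitochondrial mRNAs, fell by 0.35 and 0.46 on the log2 scale. ESRRA, a nuclear receptor that acts at respiratory genes, was the higher one (log2 fold change 0.47, edgeR adjusted p = 3.80e-05). With library totals alone 7 regulators were higher and 4 lower, so the balance of this list depended on the scaling.

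Of 16 genes for electron carriers and ubiquinone synthesis, 5 were higher and 6 lower, the same counts without any 1 library. COQ8A and COQ4, of the ubiquinone synthesis complex, were higher by 0.84 and 0.68 on the log2 scale, and PDSS1, which makes the ubiquinone tail, fell by 0.84. GPD2, which feeds electrons from glycerol 3-phosphate into ubiquinone, fell by 0.65. Of 16 genes of the citric acid cycle and pyruvate dehydrogenase, 1 was higher and 11 lower, with 8 to 11 lower when 1 library was left out and 4 higher and 5 lower with library totals alone. FH, CS and SUCLA2 fell by 0.67, 0.55 and 0.45 on the log2 scale. Called shares were 68.8% for the carriers and 75.0% for the citric acid cycle, beside 39.5% for the respiratory chain members and 60.1% for all tested genes. These differences between lists were not tested.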

How the data were processed

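The authors deposited 1 table of whole-number counts per library, with versioned Ensembl gene IDs and no header. TopHat2 2.0.11, TopHat and HTSeq were used, per the submitters' processing notes, with hg19 and GRCh37 as builds and no role stated. Some IDs belong to later annotations, so the counts carry no certain build and give no coordinates here. Read strand, multi-mapping and overlapping genes are handled in ways that no source used here states.

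A gene name table held 56321 of the 60483 IDs. The rule matched 269 symbols, of which 90 were protein-coding in GENCODE 29 and 179 were not. Counts were tested as deposited in R 4.3.3 with edgeR 4.0.16 (filterByExpr, TMM, glmQLFTest with the group as its only term). Adjustment was by Benjamini-Hochberg over the 14900 genes kept, and genes were called at 0.05. The SE is the size of the log2 fold change over the square root of F, CPM use TMM-scaled totals, and percent of control compares mean CPM. The fit was tested on simulated data. Exon overlap is the share of the principal transcript covered by exons of other GENCODE 29 genes.

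Named genes were AHR, the core catalytic subunits, up to 4 called members of each complex with the largest fold change (at least 5 CPM, no overlap between the groups), isoform pairs, and up to 4 called genes with the smallest p in each other list. Other called members are named where they complete a count, and some genes that the rule takes are left out of the text and figures. The members and lists were chosen with earlier results of these data known. Alternatives were other scaling factors (DESeq2 size factors, upper-quartile factors, library totals alone), other filters, a replicate block, DESeq2 1.42.0, limma-voom (limma 3.58.1), stricter thresholds, removal of abundant genes or of GC and length trends, and leaving out each library. A further 2, leaving out members with overlapped exons or under 5 CPM, were added after seeing the data.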

Additional observations from a re-analysis of the deposited data

How the results depend on the processing

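A gene with no count in a library may still stand at up to 3 counts, for counting error only. That is 0.200 to 0.259 CPM by library totals without TMM scaling. The AHR transcript stayed called lower under every alternative (log2 fold change -0.58 to -0.35, edgeR, DESeq2 or limma-voom adjusted p 1.54e-11 to 0.00284). Of the 32 called members, 11 kept their call under every alternative, 7 higher and 4 lower. The 7 higher ones included NDUFA4L2, which supports nothing here because of the filter on low counts. The cause of the shifts below was not tested. Of all members, 11 were called higher and 21 lower as reported. These counts became 27 and 6 with library totals alone, 15 and 11 with upper-quartile factors, 7 and 12 at a threshold of 0.01, 7 and 4 with a tested minimum fold of 1.2, and 7 to 25 and 12 to 28 without 1 library. Over all genes, 4474 were called higher and 4479 lower as reported. With library totals alone 39.5% were higher and 21.5% lower, and with upper-quartile factors 35.1% were higher and 25.4% lower.

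By complex, called higher and lower, complex I had 4 and 12 as reported, 7 and 4 with upper-quartile factors, 12 and 2 with library totals alone, 6 lower with DESeq2's test, 5 lower at a threshold of 0.01, 2 lower with the minimum fold, and 4 to 11 higher and 5 to 15 lower without 1 library. Complex II had 2 lower as reported and 0 lower with library totals alone or the minimum fold. Complex III had 4 higher and 1 lower with library totals alone, 1 higher under either stricter threshold, 0 lower with the minimum fold, 4 lower with the replicate block, and 1 to 2 higher and 2 to 4 lower without 1 library. Complex IV had 4 higher with library totals alone, 1 higher under either stricter threshold and without members under 5 CPM, 4 higher and 4 lower with GC and length trends removed, and 1 to 4 higher without 1 library. Complex V had 6 higher and 1 lower with library totals alone, 1 lower with upper-quartile factors, 0 higher and 1 lower at a threshold of 0.01, 0 higher and 0 lower with the minimum fold, 4 higher and 5 lower with GC and length trends removed, and 0 to 7 higher and 1 to 4 lower without 1 library.

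The member median was -0.0040 with upper-quartile factors, 0.066 with library totals alone and -0.12 to 0.0063 without 1 library. The log2 ratio of summed levels was 0.062 for complex I and -0.034 for complex II with upper-quartile factors. With library totals alone it was 0.133, 0.035, 0.146, 0.047 and 0.050 for complexes I to V, and without 1 library -0.067 to 0.071 for complex I, with no other complex past its spread.

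Signs turned for members that were not called. With library totals alone the log2 fold changes were 0.066 for NDUFV1, 0.0066 for UQCRFS1, 0.033 for NDUFA4, 0.061 for COX4I1, 0.050 for ATP5F1B and 0.108 for ATP5MC3, which was 0.038 with upper-quartile factors. SDHD stood at -0.0021 with DESeq2 size factors, -0.0103 with no filter, -0.0018 with DESeq2's test and -0.0013 without abundant genes. Without 1 library the values ran from -0.070 to 0.072 for SDHD, -0.041 to 0.143 for COX7A2, -0.147 to 0.0063 for COX4I1 and -0.101 to 0.011 for ATP5MC3.

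Libraries share replicate numbers, and whether the numbers pair them is not stated in the labels. Deviations of same-numbered libraries correlated at 0.193, -0.040 and 0.154, and those of differently numbered libraries at -0.263 to 0.160. These values do not settle whether the libraries are paired, and the fit reported here has no replicate term. The replicate block gave 13 members higher and 26 lower, and 9598 called genes against 8953. With the block COX8A, UQCRFS1 and ATP5MC1 were called lower (edgeR adjusted p = 0.0096, 0.0359 and 0.0240).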

Other observations

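The rule also matched symbols of 173 pseudogenes of these families, which were kept out of the members. Of these, 122 had no count in any library and 4 were tested. Of the 4, COX5BP6, COX6A1P2, NDUFV2P1 and UQCRFS1P1, edgeR called none, with adjusted p from 0.0537 for COX5BP6 to 0.710 for NDUFV2P1. Before adjustment 1 of the 4, COX5BP6, was under 0.05 in edgeR's test, and after adjustment DESeq2 called 0 and limma-voom 1 of the 4. COX5BP6 had 13, 12 and 13 counts in AHR siRNA libraries, against 6, 11 and 3 in control siRNA libraries. It passed the filter on low counts only through the AHR siRNA libraries, so its tests support nothing. Counts on all pseudogenes came to 0.124% to 0.138% of the members' counts in AHR siRNA libraries and 0.115% to 0.158% in control siRNA libraries.

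Loci beside members that are not protein-coding gave values of their own. NDUFA6-DT, the divergent transcript next to NDUFA6, had 41, 74 and 62 counts in AHR siRNA libraries, against 14, 45 and 30 in control siRNA libraries (log2 fold change 1.04, SE 0.28, edgeR adjusted p = 0.00332), while NDUFA6 was lower at -0.35. NDUFB2-AS1 had 12, 10 and 12 counts in AHR siRNA libraries, against 4, 6 and 2 in control siRNA libraries (log2 fold change 1.53, SE 0.46, edgeR adjusted p = 0.00731). It passed the filter on low counts only through the AHR siRNA libraries, so its call supports nothing, and NDUFB2 was not called at 0.11. NDUFV2-AS1 was not called (log2 fold change 0.06, edgeR adjusted p = 0.879), while NDUFV2 was lower. Whether reads were counted by strand is not stated in the labels, so reads of an antisense locus and its partner cannot be told apart.

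Some members lie over genes that changed, named here after their values were seen. Other genes that overlap members, among them PTCD1, RNF113A, BRAF, RBM10 and RPS28, were not called. Of all tested genes 60.1% were called. HIF1AN, whose exons overlap 71.7% of the NDUFB8 transcript with those of other genes, was higher (log2 fold change 0.47, edgeR adjusted p = 6.75e-06), and NDUFB8 was not called at -0.30 (edgeR adjusted p = 0.122). MYL5, which overlaps ATP5ME, was higher at 0.51 (edgeR adjusted p = 0.00114), and ATP5ME was not called at 0.14. KCTD14, the partner of NDUFC2 in a readthrough gene, had 12, 8 and 11 counts in AHR siRNA libraries, against 25, 16 and 23 in control siRNA libraries, and was lower at -0.98 (edgeR adjusted p = 0.0186). KCTD14 passed the filter on low counts only through the control siRNA libraries, so its call supports nothing. NDUFC2 was not called at -0.38 (edgeR adjusted p = 0.0561).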
